A study of Homo sapiens with 8 samples.

Results

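The 10 genes described here, FERMT2, PDLIM5, PCDH9, GAREM1, CABLES1, PSD3, TMEM170B, AIG1, ABCA5 and CCDC92, were chosen by their log2 differences, because the values of their brightest probe sets were higher with the EZH2 inhibitor GSK126 than with vehicle in both leukaemia lines of the study. They are 10 of the 19775 genes on the array, and all of their probe sets, 34 in number, are described. The 2 comparisons of GSK126 with vehicle chose the genes, so the responses of the 10 genes are given below as descriptions, without tests. RNA from 8 cultures of the lines SUP-B8 and NALM-6, both acute lymphoblastic leukaemia lines per the series' design text, was measured on Affymetrix HG-U133 Plus 2.0 arrays. The 4 groups were SUP-B8 with 0.5 uM GSK126, SUP-B8 with DMSO, NALM-6 with 0.5 uM GSK126 and NALM-6 with DMSO, each kept for 72 h and each with 2 arrays that the labels call biological replicates. No transgene or other allele is named for any group, and the EZH2 genotype of the lines is not in the labels, although a substitution in EZH2 is the subject of the study's title. P-values measure the spread between these cultures of 1 line each.

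EZH2 is the catalytic subunit of the Polycomb repressive complex PRC2, which places methyl groups on lysine 27 of histone H3. Trimethylation of this lysine marks silenced genes, often at promoters rich in CpG dinucleotides, and GSK126 competes with the methyl donor of the enzyme. In B cells EZH2 is best known for its role in germinal centres and in lymphomas with an altered EZH2. The 10 genes encode proteins of several kinds: proteins of adhesion and the actin cytoskeleton (FERMT2, PDLIM5, PCDH9), adaptors and regulators of signalling (GAREM1, CABLES1, PSD3), and membrane or organelle proteins (TMEM170B, AIG1, ABCA5, CCDC92).

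The deposited values are log2 expression values, on which a difference of 1 is a 2-fold difference. The array medians over all 54675 probe sets lay between 7.18 and 7.24, the correlation across probe sets was r = 0.9977 to 0.9982 between replicates, and no pair of arrays was identical. No detection calls were used here. Where every array of a group lay at or below its median, the group's level cannot be told from background here, by a limit set with the values known, and a difference against it is given as at least the distance to the medians. EZH2 itself averaged 11.20 ± 0.03 with GSK126 and 11.21 ± 0.11 with DMSO in SUP-B8-labelled arrays, and 11.22 ± 0.03 with GSK126 and 11.21 ± 0.06 with DMSO in NALM-6-labelled arrays (SD, n = 2 each). It was not called in either line (log2 differences -0.01 and 0.01, limma adjusted p = 0.974 and 0.925).

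Markers of B cells were above the medians in all groups, among them CD79A and PAX5, but precursor markers went against 1 line label. DNTT, the terminal transferase of precursor lymphocytes, was at 13.50 to 13.76 in SUP-B8-labelled arrays and at 6.56 to 6.89, below the medians, in NALM-6-labelled arrays. VPREB1, a surrogate light chain of the pre-B receptor, was at 13.32 to 13.37 in SUP-B8-labelled and 5.91 to 6.47 in NALM-6-labelled arrays. MS4A1, the mature B cell antigen CD20, ran the other way, at 7.96 to 9.13 in SUP-B8-labelled and 12.37 to 13.34 in NALM-6-labelled arrays. NALM-6 is known as a precursor B line, so the lines are called by their labels throughout. The identity of the cultures was not tested, and the directions between the lines rest on these labels, as does the line to which a response belongs. Over whole lists, 6 of 6 precursor B markers had both arrays above their medians in SUP-B8-labelled groups, and 2 of 6, CD34 and MME, in NALM-6-labelled groups. For mature B markers these were 1 of 5, MS4A1, in SUP-B8-labelled and 4 of 5 in NALM-6-labelled groups. The summed linear level of the mature list was 825 to 834 with GSK126 and 527 to 546 with DMSO under the SUP-B8 label. Under the NALM-6 label it was 14700 to 15100 with GSK126 and 20900 to 21300 with DMSO. Its marker MS4A1 moved the same way, at log2 9.08 to 9.13 with GSK126 and 7.96 to 8.10 with DMSO under the SUP-B8 label. Under the NALM-6 label MS4A1 was at 12.37 to 12.40 with GSK126 and 13.33 to 13.34 with DMSO. The sums weigh bright markers most and do not show that the other mature markers moved. The part of these shifts in the results below was not tested.

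Lists of other cell types had summed linear levels in narrow ranges over the 8 arrays, 495 to 567 for myeloid, 697 to 808 for endothelial and 901 to 1030 for T cell markers. Of the myeloid markers, which include CD14, LYZ and MPO, 0 of 6 were above in any group. Fibroblast markers were above for 3 of 6 in SUP-B8-labelled and 2 of 6 in NALM-6-labelled groups, with COL1A2, COL3A1 and LUM below in all. The fibroblast list's summed linear level was 1360 to 1390 with GSK126 and 1290 to 1460 with DMSO under the SUP-B8 label, and 1370 to 1410 with GSK126 and 1270 to 1420 with DMSO under the NALM-6 label. Endothelial markers were above for 2 of 5 and T cell markers for 3 of 6 in every group. In bulk samples such as these a larger share of cells with a transcript and more transcript per cell cannot be told apart.

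The promoters of 9 of the 10 genes were matched by symbol in a RefSeq table of build GRCh38.p14, which gave 14 windows of 250 bases upstream of a listed start. The windows of 4 genes are printed to show the sequence context of genes that moved together on the arrays: FERMT2 and PCDH9 among the adhesion genes, and TMEM170B and ABCA5 among the membrane proteins. All are written 5′ to 3′ on the gene's own strand, and capitals mark the GC box GGGCGG or its reverse complement CCGCCC.
FERMT2, chr14:52951051-52951300, minus strand: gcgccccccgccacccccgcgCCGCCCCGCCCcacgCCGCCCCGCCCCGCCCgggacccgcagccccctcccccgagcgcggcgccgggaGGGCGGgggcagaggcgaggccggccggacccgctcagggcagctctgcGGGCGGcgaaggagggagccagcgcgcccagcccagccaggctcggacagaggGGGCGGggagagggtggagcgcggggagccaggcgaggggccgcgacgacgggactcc
PCDH9, chr13:67230337-67230586, minus strand: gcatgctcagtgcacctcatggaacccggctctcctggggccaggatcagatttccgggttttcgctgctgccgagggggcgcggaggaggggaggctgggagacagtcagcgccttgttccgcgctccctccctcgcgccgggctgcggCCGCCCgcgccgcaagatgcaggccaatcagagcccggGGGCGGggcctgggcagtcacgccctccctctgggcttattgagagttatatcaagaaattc
TMEM170B, chr6:11537499-11537748, plus strand: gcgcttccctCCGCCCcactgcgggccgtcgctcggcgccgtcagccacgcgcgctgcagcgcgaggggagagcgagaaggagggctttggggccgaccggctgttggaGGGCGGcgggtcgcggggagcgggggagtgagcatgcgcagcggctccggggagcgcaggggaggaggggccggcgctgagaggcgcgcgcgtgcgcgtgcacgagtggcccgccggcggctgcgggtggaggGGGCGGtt
ABCA5, chr17:69327134-69327383, minus strand: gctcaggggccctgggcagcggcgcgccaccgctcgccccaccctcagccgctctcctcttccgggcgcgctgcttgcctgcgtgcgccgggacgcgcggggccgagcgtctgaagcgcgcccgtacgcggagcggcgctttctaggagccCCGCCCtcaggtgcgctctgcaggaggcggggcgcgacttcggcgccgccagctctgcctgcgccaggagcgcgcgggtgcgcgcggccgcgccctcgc

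The GC box, a motif known for binding SP1, was searched on both strands and lay in 12 of the 14 windows (85.7%), at least 1 for each of the 9 genes. The same motif lay in 60.9% of the 15284 windows of genes tested on these arrays and in 65.6% of the 154 windows of the other genes called higher in both lines. FERMT2 held 8 GC boxes, the highest number of the 14 windows, and 84.4% of its bases were G or C. Of the windows of tested genes 0.995% held as many GC boxes or more. ABCA5 held 42 CpG dinucleotides, also the highest number of the 14, reached by 2.0% of the windows of tested genes. It had 1 GC box and 1 copy of the ETS core CCGGAAG. TMEM170B held 39 CpG, 3 GC boxes and 1 copy of the NRF1 core GCATGCG, and PCDH9 held 20 CpG, 2 GC boxes and 1 CCAAT box. Over all 14 windows the number of CpG ran from 1 to 42 with a median of 29.5, beside a median of 19 over the windows of tested genes. The median was 21.5 over the 154 windows of the other genes called higher in both lines. The lowest counts, 1 and 2, came from 2 of the 3 listed starts of AIG1. The TATA box TATAAA lay in 3 windows, of CABLES1 and AIG1, the E-box CACGTG in 2 windows of CABLES1, and the AP-1 motif TGANTCA in none of the 14. Over the windows of tested genes these motifs lay in 6.33%, 8.17% and 4.66%. The ETS core, the NRF1 core and the CCAAT box, each in 1 of the 14, lay in 13.3%, 4.85% and 32.7% of them. The matches in the 14 windows overlap in places and describe letters in a window, not bound sites.

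**Figure D1:**
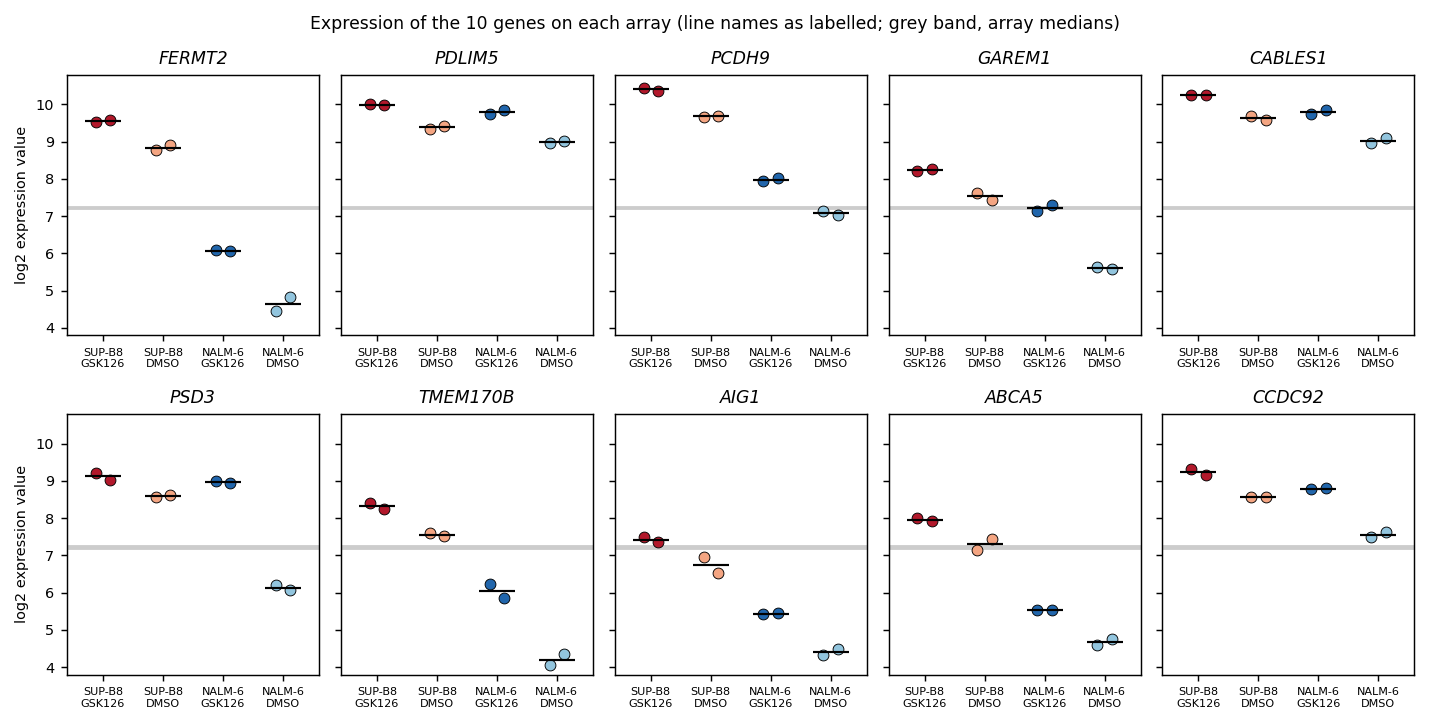
Log2 expression value (vertical axis) of each of the 10 genes on each of the 8 arrays, with groups along the horizontal axis, points for arrays, bars for group means of n = 2 and a grey band for the range of array medians (7.18 to 7.24). In every panel both GSK126 points lie above both DMSO points of the same line label, and the NALM-6-labelled points of FERMT2, TMEM170B, AIG1 and ABCA5 all lie below the band.

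Among the adhesion and cytoskeleton genes, PDLIM5 was well above the medians in both lines. It encodes a PDZ and LIM domain scaffold of actin filaments that also binds protein kinase C. PDLIM5 had 10.01 and 9.97 with GSK126 against 9.35 and 9.41 with DMSO in SUP-B8-labelled arrays, a log2 difference of 0.61 ± 0.06 (SE). In NALM-6-labelled arrays it had 9.75 and 9.86 with GSK126 against 8.96 and 9.02 with DMSO, a difference of 0.81 ± 0.06 (SE). The GSK126 and DMSO arrays did not overlap in either line.

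FERMT2 encodes kindlin-2, which binds the tails of beta integrins and helps to activate them. It had 9.52 and 9.58 with GSK126 against 8.77 and 8.90 with DMSO in SUP-B8-labelled arrays, a difference of 0.71 ± 0.11 (SE). Under the NALM-6 label the values were 6.09 and 6.05 with GSK126 against 4.45 and 4.84 with DMSO. All 4 of these arrays lay below their medians, so the order of the groups is given without a size.

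PCDH9 encodes a non-clustered protocadherin, a homophilic cell adhesion molecule studied mostly in the brain. It had 10.43 and 10.37 with GSK126 against 9.67 and 9.69 with DMSO in SUP-B8-labelled arrays, a difference of 0.72 ± 0.05 (SE). In NALM-6-labelled arrays it had 7.94 and 8.01 with GSK126 against 7.13 and 7.04 with DMSO. There only the GSK126 arrays lay above the medians, which puts the difference at 0.78 or more.

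Among the signalling genes, PSD3 had the lowest SUP-B8 response of the 10. It encodes an exchange factor that loads the small GTPase ARF6, a regulator of endosomal traffic. PSD3 had 9.21 and 9.03 with GSK126 against 8.58 and 8.61 with DMSO in SUP-B8-labelled arrays, a difference of 0.52 ± 0.07 (SE). Under the NALM-6 label the values were 9.0 and 8.93 with GSK126 against 6.2 and 6.07 with DMSO. The DMSO arrays lay below their medians, so the difference was at least 1.77, and the values as deposited differed by 2.83 ± 0.07 (SE). With GSK126 the 2 lines were close to each other, while with DMSO they were far apart.

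GAREM1 encodes an adaptor that links growth factor receptors through GRB2 to the ERK pathway. It had 8.20 and 8.26 with GSK126 against 7.63 and 7.44 with DMSO in SUP-B8-labelled arrays, a difference of 0.70 ± 0.08 (SE). In NALM-6-labelled arrays it had 7.13 and 7.30 with GSK126 against 5.63 and 5.57 with DMSO. Of these 4 arrays only 1, with GSK126, lay above its median, so the difference is bounded only at 0.02 or more, although the deposited values differed by 1.61 ± 0.08 (SE).

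CABLES1 encodes a protein that links cyclin-dependent kinases to the kinase ABL1 and acts in cell cycle control. It had 10.24 and 10.25 with GSK126 against 9.70 and 9.58 with DMSO in SUP-B8-labelled arrays, a difference of 0.60 ± 0.07 (SE). Under the NALM-6 label the values were 9.74 and 9.85 with GSK126 against 8.95 and 9.09 with DMSO, a difference of 0.77 ± 0.07 (SE). As with PDLIM5, all 8 arrays were above their medians and the groups of a line did not overlap.

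Among the membrane and organelle genes, CCDC92, a coiled-coil protein found at centrioles and cilia, was above the medians on all 8 arrays. It had 9.31 and 9.17 with GSK126 against 8.56 and 8.57 with DMSO in SUP-B8-labelled arrays, a difference of 0.67 ± 0.07 (SE). In NALM-6-labelled arrays it had 8.77 and 8.81 with GSK126 against 7.48 and 7.63 with DMSO, a difference of 1.23 ± 0.07 (SE). The GSK126 arrays were the higher ones in both lines.

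TMEM170B, a multipass membrane protein, had 8.41 and 8.25 with GSK126 against 7.60 and 7.52 with DMSO in SUP-B8-labelled arrays, a difference of 0.77 ± 0.13 (SE), the highest of the 10 in that line. Under the NALM-6 label the values were 6.23 and 5.86 with GSK126 against 4.05 and 4.34 with DMSO, in the same order but all below the medians. ABCA5 encodes a lipid transporter of lysosomes and late endosomes and showed the same pattern. It had 8.0 and 7.91 with GSK126 against 7.15 and 7.45 with DMSO in SUP-B8-labelled arrays, a difference of 0.65 ± 0.10 (SE). In NALM-6-labelled arrays ABCA5 had 5.54 and 5.54 with GSK126 against 4.58 and 4.75 with DMSO, all below the medians.

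AIG1 encodes a membrane hydrolase of fatty acid esters of hydroxy fatty acids. It had 7.49 and 7.35 with GSK126 against 6.95 and 6.53 with DMSO in SUP-B8-labelled arrays. The DMSO arrays lay below their medians, so the difference was at least 0.22, with deposited values 0.68 ± 0.13 (SE) apart. In NALM-6-labelled arrays AIG1 had 5.42 and 5.44 with GSK126 against 4.32 and 4.49 with DMSO, again below the medians throughout. AIG1 was thus above the medians in only 1 of the 4 groups.

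As deposited, the 4 group means fell into 2 orders over the 10 genes. For PDLIM5, CABLES1, PSD3 and CCDC92 the order was SUP-B8 with GSK126, NALM-6 with GSK126, SUP-B8 with DMSO and NALM-6 with DMSO, from high to low. In these 4 genes the NALM-6-labelled GSK126 mean exceeded the SUP-B8-labelled DMSO mean by 0.42 for PDLIM5, 0.37 for PSD3, 0.22 for CCDC92 and 0.15 for CABLES1. For the other 6 genes both SUP-B8-labelled means came before both NALM-6-labelled means. Here the NALM-6-labelled GSK126 mean minus the SUP-B8-labelled DMSO mean was -0.32 for GAREM1 and -1.71 for PCDH9. For FERMT2, TMEM170B and ABCA5 the NALM-6-labelled GSK126 arrays lay below their medians, which puts the SUP-B8-labelled DMSO mean at least 1.61, 0.33 and 0.08 higher, and AIG1 is given no size. Neighbouring groups in these orders did not overlap in any of the 10 genes, groups below the medians included. No share over all genes is given for this, so it describes the arrays and cannot be read as a trait of the 10 genes. Since the genes were chosen for higher values with GSK126, part of each order was fixed by that choice.

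Set side by side on the brightest probe sets, the NALM-6 response was the larger one in PDLIM5, CABLES1 and CCDC92 by its value. By its bound it was the larger one in PCDH9 and PSD3. It has no size in 4 genes, and the bound of GAREM1 lies under its SUP-B8 response. With the mean of probe sets, dim ones included, the order turned for PDLIM5 (0.32 in SUP-B8-labelled and 0.22 in NALM-6-labelled arrays) and PCDH9 (0.45 and 0.28). It stayed for CABLES1 (0.48 and 0.53) and PSD3 (0.41 and 1.82), and CCDC92 has 1 probe set. As deposited, 90 of the 123 genes called higher in both lines, the 10 included, had the larger response in NALM-6-labelled arrays. The difference between the lines' responses was not tested for the 10 genes, because both responses chose them. As deposited, values below the medians included, the median response of the 10 was 0.68 in SUP-B8-labelled and 1.13 in NALM-6-labelled arrays, beside -0.02 and 0.02 over the 13161 genes tested. Of those genes 1.91% were called higher with GSK126 in SUP-B8-labelled arrays and 20.8% in NALM-6-labelled arrays (limma, adjusted p under 0.05), with 0.334% and 18.5% called lower. The 123 genes called higher in both were 0.935% of those tested, beside 0.433% called in opposite directions and 0.0988% called lower in both, and made up 48.8% of the SUP-B8 list and 4.49% of the NALM-6 list. That number fell when any 1 array was left out, most without a SUP-B8-labelled GSK126 array. Such a fit has 1 array in a group and less to estimate the spread from, and the cause of the fall was not tested. Ranked by the lesser of their 2 responses, the 10 genes stood at 1, 3 to 10 and 18 among the 123. CABLES1, at 10, had a lesser response of 0.60, and SESN3, at 11 and chosen after its values were seen, also had 0.60.

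**Figure D2:**
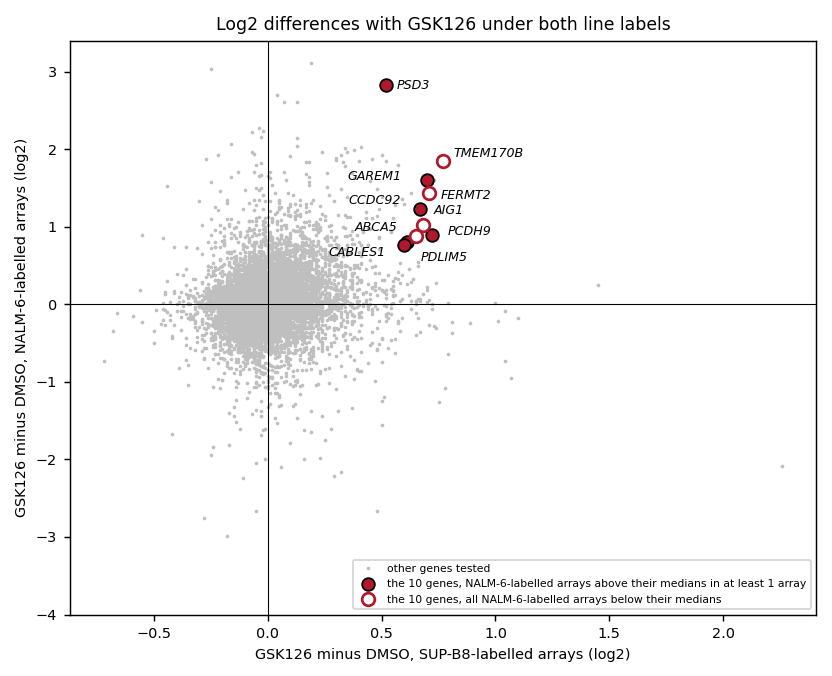
GSK126 minus DMSO log2 difference in SUP-B8-labelled arrays (horizontal axis) against that in NALM-6-labelled arrays (vertical axis) for the 13161 genes tested. Filled red points are those of the 10 genes with at least 1 NALM-6-labelled array above its median, open red points are FERMT2, TMEM170B, AIG1 and ABCA5, and grey points are all other genes. As deposited, the 10 genes span 0.52 to 0.77 horizontally and 0.77 to 2.83 vertically, with PSD3 at the top.

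The difference between the lines, averaged over both treatments, was not used to choose the genes and could be tested. It was called for most of the 13161 genes tested: 38.9% were higher and 34.4% lower in SUP-B8-labelled arrays. PDLIM5 was 0.29 ± 0.04 higher in SUP-B8-labelled than in NALM-6-labelled arrays (SE, limma adjusted p = 0.000183), although the mean of its 10 probe sets gave -0.03. CABLES1 was 0.53 ± 0.05 higher (adjusted p = 1.22e-05), and the mean of its 3 probe sets gave 0.09 (adjusted p = 0.0373). CCDC92, with 1 probe set, was 0.73 ± 0.05 higher (adjusted p = 1.24e-06). These 3 genes were above the medians in all groups, and their arrays of the 2 lines overlapped when the treatments were put together.

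PCDH9 was at least 2.46 higher in SUP-B8-labelled arrays (2.51 ± 0.04 as deposited, limma adjusted p = 1.83e-10), the largest bound among the 10 genes. The mean of its 4 probe sets, 2 of them with no group above the medians, gave 1.44. For PSD3 the difference was at least 0.78 (1.31 ± 0.05 as deposited, adjusted p = 3.9e-08). With DMSO PSD3 was at least 1.4 higher in SUP-B8-labelled arrays, and with GSK126 it was 0.15 higher. These 2 comparisons share arrays with those that chose the genes, so no test is given for them.

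FERMT2, GAREM1, TMEM170B, AIG1 and ABCA5 would not have passed the filter on dim genes without the SUP-B8-labelled arrays, so they had to differ between the lines and are described without a test. FERMT2 was at least 1.98 higher in SUP-B8-labelled arrays, TMEM170B at least 0.73, GAREM1 at least 0.66 and ABCA5 at least 0.42. AIG1 is given no size, because its SUP-B8-labelled mean did not exceed the medians. Of the 123 genes called higher with GSK126 in both lines, the 10 included, 59.3% were called higher in SUP-B8-labelled arrays and 35% lower. The line difference of the precursor markers described above ran the same way as that of the 10 genes, and its part in these differences was not tested.

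All 34 probe sets were then compared between the treatments, since a gene's probe sets can report different transcripts or none. PDLIM5 had 10, PCDH9 and GAREM1 had 4 each, FERMT2, CABLES1, PSD3 and AIG1 had 3 each, ABCA5 had 2, and TMEM170B and CCDC92 had 1 each. The GSK126 arrays lay above the DMSO arrays without overlap for 30 of the 34 in SUP-B8-labelled arrays and for 24 in NALM-6-labelled arrays, and for 23 in both. Over all 54675 probe sets the same held for 17.2%, 29.7% and 6.77%, and the GSK126 arrays lay below for 25.3% and 27.1%, beside 1 and 4 of the 34. The 10 probe sets that represent the genes were chosen for this, so the other 24 are given apart. Of these, 20 were higher with GSK126 in SUP-B8-labelled arrays, 14 in NALM-6-labelled arrays and 13 in both, and 14 had no group above the medians. They share samples and genes with the chosen ones, so the counts are a description. When each gene was averaged over its probe sets, the SUP-B8 response was 0.32 for PDLIM5, 0.45 for PCDH9 and 0.31 for AIG1, and the NALM-6 response was 0.22 for PDLIM5 and 0.28 for PCDH9.

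Several brighter probe sets repeated the pattern of their gene. A second PDLIM5 probe set, 212412_at, had differences of 0.58 in SUP-B8-labelled and 0.81 in NALM-6-labelled arrays, close to the representing one. PSD3 218613_at had 0.42 in SUP-B8-labelled arrays and at least 1.14 in NALM-6-labelled arrays, and CABLES1 225531_at had 0.33 and 0.64. PCDH9 238919_at had 0.81 in SUP-B8-labelled arrays. Some rose in both lines but less in NALM-6-labelled arrays. PDLIM5 216804_s_at had 0.57 in SUP-B8-labelled and 0.37 in NALM-6-labelled arrays, 203242_s_at had 0.55 and 0.51, and 211681_s_at had 0.37 and 0.15. CABLES1 1558621_at had at least 0.27 in SUP-B8-labelled and 0.19 in NALM-6-labelled arrays. Other probe sets did not repeat it. FERMT2 214212_x_at had 0.41 in SUP-B8-labelled arrays, and in NALM-6-labelled arrays its groups overlapped. PCDH9 219738_s_at, with no group above the medians, had overlapping groups in SUP-B8-labelled arrays and was lower with GSK126 in NALM-6-labelled arrays. PDLIM5 216803_at was the only probe set of the 34 that was lower with GSK126 in SUP-B8-labelled arrays, and it too had no group above the medians.

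**Figure D3:**
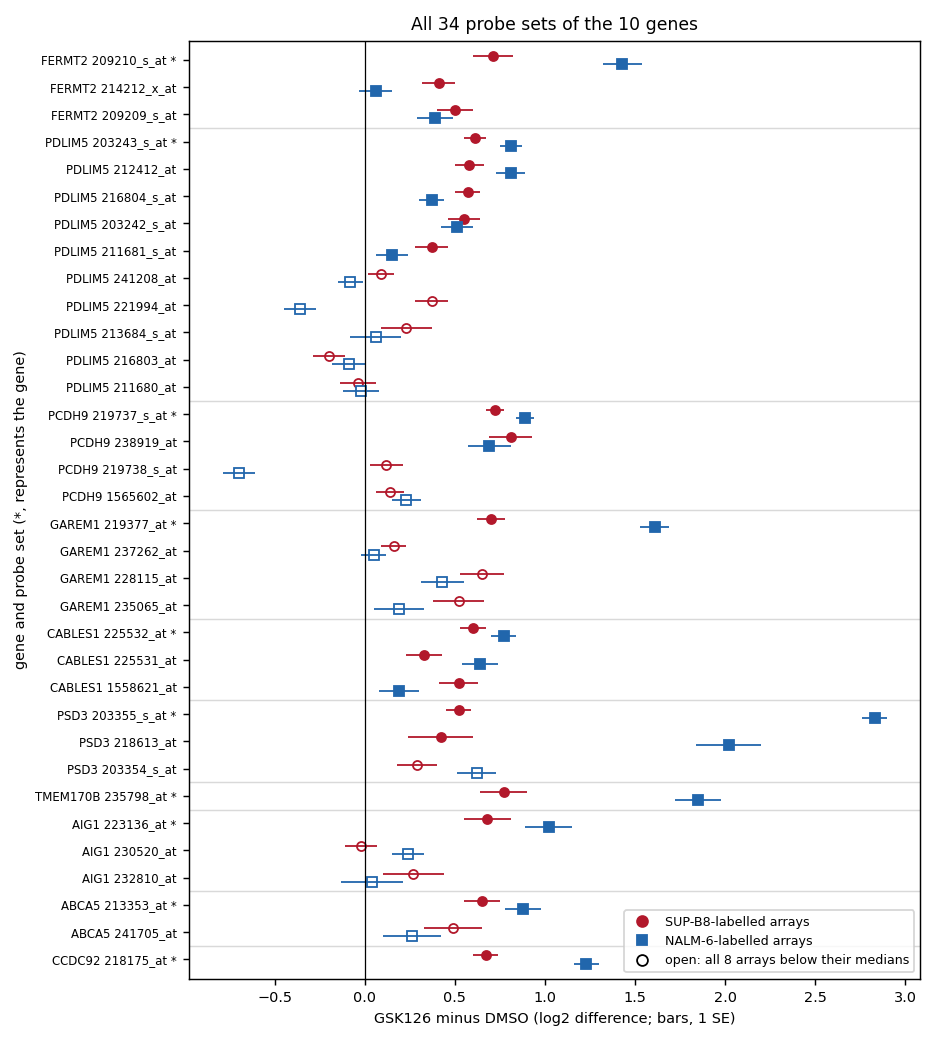
GSK126 minus DMSO log2 difference (horizontal axis, bars 1 SE) of all 34 probe sets of the 10 genes, SUP-B8-labelled arrays as red circles and NALM-6-labelled arrays as blue squares, open where all 8 arrays lay below their medians. An asterisk marks the probe set that represents its gene. Most points lie right of 0, and the exceptions are nearly all open symbols.

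Relatives and known partners of the 10 genes were taken as 9 lists, 76 genes in all, of which 71 were on the array and 57 were tested. In SUP-B8-labelled arrays 0 of the 57 were called by limma, beside 2.25% of all genes called in either direction there. An unadjusted p under 0.05 was found for 15 of the 57, a larger share than the 16.7% of all genes, and this excess was not tested. Averaging the probe sets of a gene called 1 of the 57, the adaptor GAB1 (-0.22, adjusted p = 0.0482). A trended, robust prior in limma called 3, GAB1 (-0.22), FERMT3 (-0.17) and PDLIM2 (0.38). In NALM-6-labelled arrays 12 of the 57 were called higher and 14 lower, beside 20.8% and 18.5% of all genes. The share called higher is close to the background and the share called lower is somewhat above it, which was not tested. The median response of the 57 was 0.03, beside 0.02 over all genes. The difference between the 2 responses was called for 19 of the 57 and for 25.4% of all genes.

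Of the kindlin and focal adhesion genes, 3 of 11 tested rose and 3 fell with GSK126 in NALM-6-labelled arrays. Paxillin, PXN, a focal adhesion scaffold, rose by 0.53 ± 0.07 (SE, limma adjusted p = 0.000644), and TLN2, one of the talins that couple integrins to actin, rose by 0.31 (adjusted p = 0.00219). Vinculin, VCL, which strengthens that link, had 12.10 and 12.10 with GSK126 against 12.70 and 12.75 with DMSO and fell by 0.62 ± 0.06 (SE, adjusted p = 8.24e-05). The other kindlins, FERMT1 and FERMT3, had differences of -0.06 and -0.09 and were not called. Of the PDZ and LIM genes, 1 of 5 tested rose and 1 fell. PDLIM7 fell by 0.39 (adjusted p = 0.00818), a call that was lost without NALM-6 DMSO replicate 1 (adjusted p = 0.052). PDLIM1, which like PDLIM5 binds alpha-actinin, had 13.33 and 13.31 with GSK126 against 12.45 and 12.49 with DMSO in NALM-6-labelled arrays and rose by 0.85 ± 0.05 (SE, adjusted p = 6.88e-06). In SUP-B8-labelled arrays PDLIM1 had 14.27 and 14.30 with GSK126 against 14.28 and 14.31 with DMSO. Of the protocadherins related to PCDH9, 4 were tested and none was called in NALM-6-labelled arrays, also at an unadjusted p under 0.05. The largest difference there was that of PCDH7, -0.14 (limma adjusted p = 0.111), which was called only with renewed quantile normalization among 16 other settings (-0.19, adjusted p = 0.0421).

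Of ARF6 and its other exchange factors, 2 of 10 tested rose and 2 fell in NALM-6-labelled arrays. CYTH3, an exchange factor of the cytohesin family, rose by 0.86 ± 0.06 (SE, limma adjusted p = 2.4e-05), with 8.26 and 8.33 with GSK126 against 7.47 and 7.40 with DMSO. Its relative CYTH4 rose by 0.40 (adjusted p = 0.00103), while CYTH1 fell by 0.49 (adjusted p = 0.00142). Among the GRB2 and ERK adaptors, 1 of 9 tested rose and 2 fell. SOS1, the exchange factor that GRB2 brings to RAS, rose by 0.64 ± 0.06 (SE, adjusted p = 7.2e-05), GAB1 fell by 0.32 (adjusted p = 0.00307) and PTPN11, the phosphatase SHP2, fell by 0.21 (adjusted p = 0.0127). The PTPN11 call was lost without NALM-6 DMSO replicate 1 (adjusted p = 0.058) or GSK126 replicate 2 (adjusted p = 0.0947). The relative GAREM2 was not called (adjusted p = 0.971). Among the partners of CABLES1, 2 of 6 tested rose and 2 fell. CABLES2 rose by 0.54 ± 0.05 (SE, adjusted p = 9.71e-05), and the kinase WEE1 fell by 0.40 (adjusted p = 0.000552). CDK5R1, an activator of CDK5, was called lower (adjusted p = 0.00323) but is given no size: its GSK126 arrays, at 6.64 and 6.62, lay below their medians, and its DMSO arrays, at 7.05 and 7.27, did not exceed them on average.

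Of the other ABCA transporters, 1 of 6 tested rose and 2 fell in NALM-6-labelled arrays. ABCA1, which exports cholesterol to apolipoproteins, had 7.89 and 7.98 with GSK126 against 8.72 and 8.91 with DMSO and fell by 0.88 ± 0.07 (SE, limma adjusted p = 4.14e-05). ABCA6 fell by 0.53 (adjusted p = 0.00458) and ABCA7 rose by 0.44 (adjusted p = 0.00141). In the centriolar appendage list, which stands beside CCDC92, 1 of 5 tested rose and 2 fell: CEP164 rose by 0.46 (adjusted p = 0.00133), SCLT1 fell by 0.22 (adjusted p = 0.009) and FBF1 fell by 0.15 (adjusted p = 0.0296). SCLT1 was not called without NALM-6 DMSO replicate 2 (adjusted p = 0.051) or GSK126 replicate 1 (adjusted p = 0.0697). The FBF1 call was lost in 10 of 16 other settings, the omission of any 1 NALM-6-labelled array among them, and FBF1 turned to 0.11 with the mean of its probe sets. TMEM170A, the relative of TMEM170B, rose by 0.46 (adjusted p = 0.000249) on its brightest probe set and was not called on the mean of its 3.

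**Figure D4:**
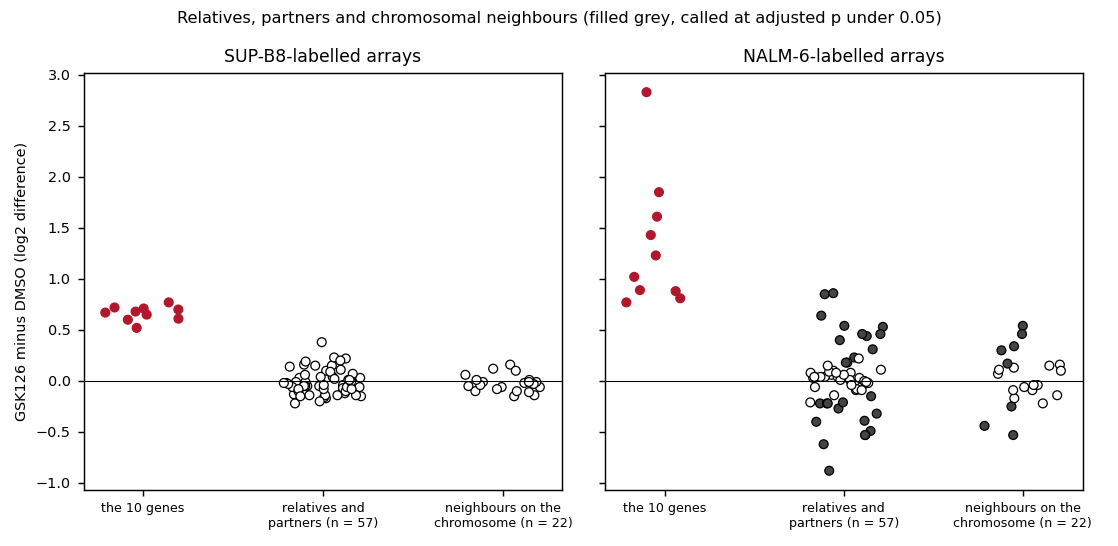
GSK126 minus DMSO log2 difference (vertical axis) in SUP-B8-labelled arrays (left) and NALM-6-labelled arrays (right) for the 10 genes (red), the 57 relatives and partners tested and the 22 chromosomal neighbours tested, 1 point per gene. Filled grey points were called by limma: 0 of 57 and 0 of 22 on the left, 26 of 57 and 8 of 22 on the right, while the red points all lie above 0.5.

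The nearest protein-coding genes on the chromosome were taken from the RefSeq gene table, 2 on each side of each of the 10 genes. Of the 40 neighbours 35 were on the array and 22 were tested. In SUP-B8-labelled arrays 0 of the 22 were called by limma, beside 2.25% of all genes. An unadjusted p under 0.05 was found for 3 of the 22, beside 16.7% of all genes. KLHL14, beside GAREM1, was called when its probe sets were averaged (0.44, adjusted p = 0.00503). The highest response of its 3 probe sets was that of 228377_at, chosen after its values were seen, with 7.77 and 7.70 with GSK126 against 6.59 and 6.33 with DMSO in SUP-B8-labelled arrays. The DMSO arrays lay below their medians, which puts the difference at 0.53 or more, and in NALM-6-labelled arrays this probe set was 0.65 higher with GSK126. The probe set that represents KLHL14 had 0.16 and -0.04. In NALM-6-labelled arrays 5 neighbours rose and 3 fell, of 22, beside 20.8% and 18.5% of all genes. The difference between the 2 responses was called for 8 of the 22. Beside ABCA5, MAP2K6, a kinase of the p38 pathway, rose by 0.54 (adjusted p = 0.000386) and ABCA6 fell by 0.53 (adjusted p = 0.00458). Next to CCDC92, ZNF664 rose by 0.46 (adjusted p = 0.000371) and ATP6V0A2, a subunit of the vacuolar proton pump chosen after its values were seen, fell by 0.44 (adjusted p = 0.00027). The other called neighbours, also named after their values were seen, were GNPNAT1 and DDHD1 beside FERMT2 and SLC35D4 beside CABLES1, which rose by 0.17 to 0.34, and HIVEP2 beside AIG1, which fell by 0.25.

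The 6 other genes named here were most like the 10 by the lesser of their 2 responses over the 8 arrays, among genes called higher in both lines and above the medians in a group of each. MAN1A1, a Golgi mannosidase that trims N-glycans, was 0.73 ± 0.06 higher with GSK126 in SUP-B8-labelled arrays and 1.60 ± 0.06 higher in NALM-6-labelled arrays. GALNT12, which starts O-glycan chains, had 0.59 ± 0.10 and 1.36 ± 0.10, and the protease CTSO had 0.56 ± 0.06 and at least 0.95, since its NALM-6-labelled DMSO arrays lay below their medians. PRKAR2B, a regulatory subunit of protein kinase A, had 0.66 ± 0.05 and 0.55 ± 0.05, the lower value in NALM-6-labelled arrays. The zinc transporter SLC30A4 had 0.54 ± 0.06 and 0.93 ± 0.06, and IL6ST, the receptor subunit gp130, had 0.52 ± 0.06 and, for the same reason, at least 1.33. The calls in both lines chose these 6, so no test is given for them. GALNT12 lost the SUP-B8 call without SUP-B8 DMSO replicate 1 (0.44, adjusted p = 0.067), GSK126 replicate 1 (0.57, adjusted p = 0.144) or GSK126 replicate 2 (0.60, adjusted p = 0.108). Without SUP-B8 GSK126 replicate 1, CTSO (0.52), SLC30A4 (0.50) and IL6ST (0.51) also lost it, each at an adjusted p of 0.066. With the mean of probe sets IL6ST had 0.16 and SLC30A4 0.31 in SUP-B8-labelled arrays, and neither was called. MAN1A1 was second of the 123 in this ranking, between members of the 10. Lost calls are listed here for these 6 only and not for the 10, so the 2 sets cannot be compared in this respect.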

How the data were processed

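The deposited table holds log2 expression values for 54675 probe sets on 8 arrays, 2 per group, and the log2 scale was taken from their range, 3.15 to 15.11, since the base is not stated in the files. The submitters' processing notes name MAS5 and RMA. Which of them made these values, and in what version, the sources used here do not say. The array medians agree, so the values were taken as normalized by the authors and were not transformed, and a shift common to most transcripts cannot be seen in them. The number of arrays limits the precision.

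Gene symbols came from the platform annotation: 41097 probe sets had 1 symbol, 1801 several and 11777 were not listed, and no symbol needed updating through the RefSeq table, which lacked 54 of the identifiers. Among a gene's probe sets with 1 symbol the one of highest mean stands for the gene, which was tested if at least 2 of 8 arrays lay above their medians (13161 of 19775 genes). limma version 3.58.1 in R version 4.3.3 fitted 1 mean per group over all 8 arrays, with 4 residual degrees of freedom. Benjamini-Hochberg adjustment ran over all genes tested, and calls needed an adjusted p under 0.05. Values are group means ± SD or fitted differences ± SE.

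On simulated data for the 13161 genes with 200 changed by 0.5 on the log2 scale, 86.5% were recovered in the SUP-B8 response, 86.5% in the NALM-6 response and 94% in the line difference. Of the genes called there, 4.42%, 4.95% and 1.05% had not been changed. With a change of 1 these shares were 2.97%, 4.88% and 8.26%. The simulated noise was independent between arrays and fewer genes changed than were called on the real arrays, so these rates may not carry over. Promoter windows were read from a RefSeq table. Samples were grouped by their labels. The 10 genes, the lists and the alternatives were chosen with earlier results of these data known. Named by rule were the 10 genes, the 6 others with the highest lesser response, up to 3 called genes of largest difference per list and comparison (or the largest where none was called) and EZH2.

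Same-numbered replicates of a line did not deviate together (correlation of deviations -0.0417 in SUP-B8-labelled and -0.018 in NALM-6-labelled arrays), so the numbers were not taken as pairs. Alternatives covered the filter, the choice of probe set, normalization, the variance prior, which arrays entered the fit, a replicate block and leaving out each array. Probe sets with no single symbol were not tested.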

Additional observations from a re-analysis of the deposited data

Results flagged for a closer look

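For relatives, partners and neighbours of the 10 genes, the difference between the 2 GSK126 responses, SUP-B8-labelled minus NALM-6-labelled, was tested in the same limma fit with adjustment over all genes tested. It was called for 19 of the 57 relatives and 8 of the 22 neighbours, ABCA6 being in both, and for 25.4% of all genes. All of them are given, with sizes as deposited. This test was added after the data were examined.

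Among the adhesion relatives the difference was 0.52 ± 0.08 (SE, adjusted p = 0.00264) for VCL, -0.37 ± 0.10 (adjusted p = 0.0311) for PXN, 0.24 ± 0.07 (adjusted p = 0.0375) for RSU1 and -0.28 ± 0.08 (adjusted p = 0.0407) for ILK. Among the PDZ and LIM genes it was 0.58 ± 0.14 (adjusted p = 0.018) for PDLIM2, which was called in neither line alone, and -0.86 ± 0.07 (adjusted p = 9.7e-05) for PDLIM1. The exchange factors gave -0.72 ± 0.09 (adjusted p = 0.000849) for CYTH3, 0.53 ± 0.11 (adjusted p = 0.00976) for CYTH1 and -0.55 ± 0.08 (adjusted p = 0.00256) for CYTH4. The transporters gave 1.10 ± 0.10 (adjusted p = 0.000192) for ABCA1, 0.48 ± 0.15 (adjusted p = 0.0477) for ABCA6, which lay below the medians in SUP-B8-labelled arrays, and -0.52 ± 0.10 (adjusted p = 0.0062) for ABCA7.

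Of the signalling and cell cycle partners, SOS1 had -0.70 ± 0.08 (adjusted p = 0.000645), CABLES2 had -0.39 ± 0.07 (adjusted p = 0.0054), CDK5R1, whose NALM-6-labelled GSK126 arrays lay below their medians, had 0.60 ± 0.14 (adjusted p = 0.0146), and WEE1 had 0.47 ± 0.07 (adjusted p = 0.00313). The centriolar genes SCLT1 and CEP164 had 0.42 ± 0.07 (adjusted p = 0.0041) and -0.48 ± 0.10 (adjusted p = 0.0106). TMEM170A had -0.61 ± 0.07 (adjusted p = 0.00083), and the neighbours MAP2K6 and ZNF664 had -0.55 ± 0.09 (adjusted p = 0.00422) and -0.33 ± 0.08 (adjusted p = 0.0169). Of the other neighbours ATP6V0A2 had 0.45 ± 0.07 on its brightest probe set (adjusted p = 0.00284), and GNPNAT1 had -0.35 ± 0.07 (adjusted p = 0.00849). DDHD1 had -0.35 ± 0.08 (adjusted p = 0.0146), KLHL1 -0.30 ± 0.08 (adjusted p = 0.0299) and SLC35D4 -0.27 ± 0.08 (adjusted p = 0.0419).

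For 2 dim PDLIM5 probe sets the GSK126 arrays lay above the DMSO arrays under 1 line label and below them under the other, and this difference was not tested. Probe set 241208_at had 0.09 in SUP-B8-labelled and -0.08 in NALM-6-labelled arrays, and 221994_at had 0.37 and -0.36, with all 8 arrays below their medians for both.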

How the results depend on the processing

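The count of genes called in SUP-B8-labelled arrays, 296, depended on the processing. It was 160 with no filter, 777 with a trended, robust prior and 191 with only the 4 arrays of the line, and 27 to 217 when 1 array was left out, lowest without SUP-B8 GSK126 replicate 1. Without SUP-B8 GSK126 replicate 2, DMSO replicate 2 and DMSO replicate 1 it was 72, 94 and 136. The 123 genes called higher in both lines became 59 with no filter, 238 with the trended, robust prior, 75 with only the 4 arrays of each line, and 8 to 90 when 1 array was left out, lowest without SUP-B8 GSK126 replicate 1. They numbered 28 without SUP-B8 GSK126 replicate 2, 39 without DMSO replicate 2, 54 without DMSO replicate 1, and 77 and 78 without NALM-6 GSK126 replicate 1 and 2. The count of relatives called in SUP-B8-labelled arrays, 0, was 1 with the mean of probe sets and 3 with the trended, robust prior, and the count of neighbours, 0, was 1 with the mean of probe sets. The cause was not tested.

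With replicate number as a block, which pairs the samples by number only, 213 genes were called in SUP-B8-labelled and 4730 in NALM-6-labelled arrays, and 85 were higher in both. The block called 0 relatives and 0 neighbours in SUP-B8-labelled arrays, 25 relatives and 7 neighbours in NALM-6-labelled arrays, and the line difference of 5 of the 5 genes that passed the filter in both lines.

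The 10 genes kept the sign of both responses in every alternative that tested them. A kept sign is not a kept call. Which of the 10 lost a call in these alternatives is not given, so they cannot be read as sturdier than other genes. On the representing probe sets all GSK126 arrays lay above the DMSO arrays of their line. Leaving out an array thus could not turn a sign in these genes, which were chosen for higher values with GSK126. The mean of probe sets gave smaller responses for the 8 with several, such as 0.32 and 0.22 for PDLIM5 and 0.41 and 1.82 for PSD3 in SUP-B8-labelled and NALM-6-labelled arrays. The line difference of PDLIM5 turned to -0.03 (adjusted p = 0.476) with that mean, and the NALM-6 response of FBF1 turned to 0.11. In 5 genes the arrays passed the filter in both lines: PDLIM5, PCDH9, CABLES1, PSD3 and CCDC92. The mean of probe sets called the line difference of 4 of them, without PDLIM5. The other alternatives that kept all 8 arrays called all 5, and the stricter filter left out AIG1 and ABCA5. Line differences with DMSO or GSK126 arrays only share arrays with the comparisons that chose the genes and are given no test. In NALM-6-labelled arrays 2741 genes were higher and 2437 lower, against 2255 and 2621 with arrays centred on medians and 3160 and 2407 with renewed quantile normalization. Levels below the array medians give the order of groups but no size.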
